A study of Homo sapiens with 4 samples.

Results

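A set of 6 genes of cell adhesion to laminin, vitronectin and fibrinogen was followed in MDA-MB-231 cells, an established triple-negative breast adenocarcinoma line, after exposure to recombinant human LRG1 (rhLRG1). The genes were taken by their names on a cancer array, and were chosen with earlier results of these data known. The integrin chains ITGA7 and ITGB4 and the laminin chain LAMB1 form the laminin-binding group. The integrin chains ITGA2B and ITGB3 and the ligand VTN form the vitronectin and fibrinogen-binding group. The 6 genes stand for 6 of 1856 gene probes on the array and, as each was printed as 2 spots, for 12 of 3786 gene spots. Cells received rhLRG1 at 100 ng/mL for 24 h in RPMI medium or the same medium without it, with 2 cultures analysed here per group, labelled replicates 2 and 3. The cultures of one number shared one 2-colour array, the rhLRG1-treated RNA in Alexa 647 and the untreated RNA in Alexa 555 on both, so dye and treatment cannot be told apart. All cultures came from 1 cell line, so the values describe that line only.

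Integrins are receptors made of one alpha and one beta chain that tie the extracellular matrix to the actin cytoskeleton. ITGA7 pairs with the beta 1 chain as a laminin receptor best known from muscle, and ITGB4 pairs with the alpha 6 chain as the laminin receptor of epithelial hemidesmosomes. LAMB1 is a beta chain of the laminin heterotrimers that build basement membranes. ITGA2B and ITGB3 together form the fibrinogen receptor of platelets, and ITGB3 also pairs with the alpha V chain as a vitronectin receptor. Vitronectin, encoded by VTN, is a plasma and matrix glycoprotein made mainly in liver that offers an RGD motif to integrins.

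LAMB1 and VTN are the ligands of the set and had the lowest ratios of rhLRG1-treated over untreated cells among the 6, so the bases before their start sites are shown. Each run holds the 250 bases before the start site in RefSeq (GRCh38.p14), at chr7:108003162-108003411 for LAMB1 and chr17:28370308-28370557 for VTN, both on the minus strand. Capitals mark matches, on either strand, to the GC box motif GGGCGG, to the TATA box motif TATAA, to the core motif of GATA factors, GATAA, to the core motif of SMAD factors, CAGAC, or to the nuclear receptor motif AGGTCA.
LAMB1: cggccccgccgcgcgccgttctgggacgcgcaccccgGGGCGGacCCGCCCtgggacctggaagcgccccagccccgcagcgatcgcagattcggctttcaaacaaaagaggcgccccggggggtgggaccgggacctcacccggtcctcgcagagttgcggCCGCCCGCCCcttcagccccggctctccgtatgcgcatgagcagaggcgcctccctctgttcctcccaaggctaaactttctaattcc
VTN: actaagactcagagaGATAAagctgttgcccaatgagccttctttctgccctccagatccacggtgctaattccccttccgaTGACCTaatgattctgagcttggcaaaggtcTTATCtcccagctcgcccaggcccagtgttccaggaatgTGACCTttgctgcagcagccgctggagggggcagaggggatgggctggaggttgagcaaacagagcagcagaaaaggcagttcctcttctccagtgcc
The LAMB1 window held 4 matches to GGGCGG, 1 on the printed strand and 3 on the other, the last 2 of which overlap each other. That motif occurred in 42.6% of 35116 such windows. The VTN window held 2 matches to GATAA, present in 20.4% of windows, and 2 to AGGTCA, present in 12.1%. The motifs TATAA (18.9% of windows) and CAGAC (38.0%) had no match in these letters. G and C made up 70.4% of the LAMB1 window and 54.8% of the VTN window, where the median of all windows was 58.0%. The table used here matched 3 of the 6 genes, the third being ITGA2B.

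LAMB1 was called lower in rhLRG1-treated cells. Its spots had foregrounds of 95.2 and 85.3 scanner units on replicate 2 and 87.0 and 84.7 on replicate 3 in rhLRG1-treated cells. In untreated cells they had 190 and 183 on replicate 2 and 201 and 175 on replicate 3. All 4 treated readings lay below all 4 untreated ones, but how many other probes showed this was not counted. Over all gene spots the treated channel was also dimmer, with median foregrounds of 397 and 319 on replicates 2 and 3. The untreated medians were 508 and 425. The channels differ in dye, and the treated one also carried the higher local background. It was 67.6 to 68.8 around the LAMB1 spots in treated and 41.9 to 50.2 in untreated samples. The scans were therefore corrected for background (normexp) and for the dependence of the ratio on brightness (loess), so that a ratio shows the standing of a gene among all those printed, not its absolute amount. The normalized log2 ratio of treated over untreated was -0.56 on replicate 2 and -0.13 on replicate 3. The mean was -0.35 (SE 0.11, n = 2 arrays, 95% interval -0.62 to -0.076), or a fold of 0.786. The SE and interval are limma's, with a variance moderated across probes. The Z ratio sets the standing of a gene within the treated channel against its standing within the untreated channel. It has no p-value and was taken from the background-corrected channels without loess. For LAMB1 it was -2.23, beyond the threshold of 1.5 that the methods use, and -2.14 from loess-normalized channels. By limma with Benjamini-Hochberg adjustment over all probes the adjusted p was 0.164.

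VTN was likewise called lower. Its spots had foregrounds of 166 and 220 on replicate 2 and 129 and 126 on replicate 3 in rhLRG1-treated cells. In untreated cells the foregrounds were 314 and 411 on replicate 2 and 285 and 263 on replicate 3. The groups did not overlap, again without a count over the array, and replicate 2 was the brighter array for this probe in both groups. The log2 ratio was -0.45 on replicate 2 and -0.22 on replicate 3, with a mean of -0.33 (SE 0.075, 95% interval -0.52 to -0.14) and a fold of 0.794. The Z ratio was -2.08 (-2.15 from loess-normalized channels), and each array alone passed the threshold too, with -1.90 from replicate 3 and -1.88 from replicate 2. Limma's adjusted p was 0.143. With plain subtraction of the background the Z ratio of VTN was -1.45, which is no call, at a log2 ratio of -0.62 and a limma adjusted p of 0.00591.

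ITGB4, the hemidesmosome chain, completed the genes called lower. Its spots read 102 and 108 on replicate 2 and 94.8 and 103 on replicate 3 in rhLRG1-treated cells, against 188 and 213 on replicate 2 and 199 and 203 on replicate 3 in untreated cells. The readings of the groups again did not overlap, which was not counted over the array. Duplicate spots differed by at most 1.13-fold. The log2 ratio was -0.43 on replicate 2 and -0.12 on replicate 3, with a mean of -0.28 (SE 0.087, 95% interval -0.50 to -0.057) and a fold of 0.826. The Z ratio was -2.00 (-1.71 from loess-normalized channels) and limma's adjusted p 0.168.

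Before loess, the log2 ratios of LAMB1, ITGB4 and VTN on replicate 2 were -1.44, -1.32 and -1.09, and the curve fitted through all spots took up -0.88, -0.89 and -0.65 of these. The larger part of the unnormalized ratio of these dim probes was thus shared with other probes of like brightness. What remained after loess had the same sign on every spot, as all 12 spot ratios of the 3 genes over both arrays lay between -0.65 and -0.11.

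**Figure D1:**
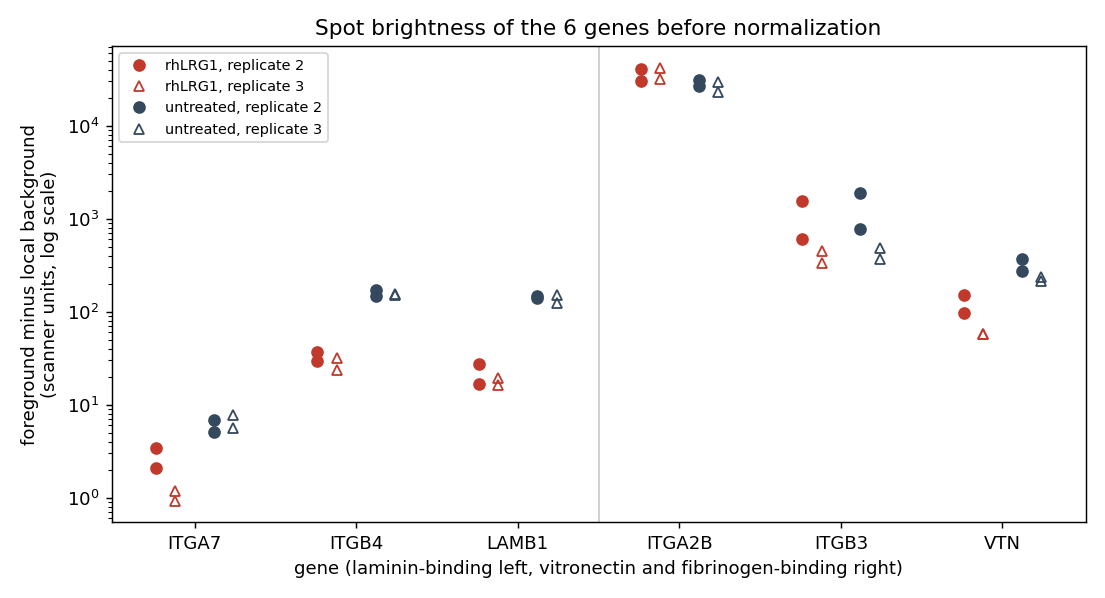
Foreground minus local background of each spot (scanner units, log scale) for the 6 genes in rhLRG1-treated and untreated cells, filled circles for replicate 2 and open triangles for replicate 3. Treated readings of ITGB4, LAMB1 and VTN lie below the untreated ones, ITGA2B lies near the top of the scan and the treated ITGA7 spots lie between 0.931 and 3.41 units above background.

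The smaller ratios of these genes on replicate 3 depended on whether 2 spots of other genes were kept. On that array a spot of IFNG had a local background of 3443 in the treated and 5345 in the untreated channel, above its foreground of 494 and 674, and a spot of RAI3 (the file's name) also lay below its background. With all spots, normexp put the SD of the background at 133 in the treated and 195 in the untreated channel of replicate 3, and with those 2 spots left out at 6.06e-05 and 0.000652. The corrected intensity of the first LAMB1 spot was then 68.5 in treated and 199 in untreated cells, where it had been 215 and 293. Leaving out these spots was chosen after the data were seen, and they were left out only together, so the part of each was not tested. It brought the spread of the log2 ratios on replicate 3 to an SD of 0.206 (0.125 with all spots), beside 0.207 on replicate 2.

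Without the 2 spots the arrays gave nearly the same ratios for the genes called lower. LAMB1 stood at -0.56 on replicate 2 and -0.50 on replicate 3, with a mean of -0.53 (SE 0.050) and a fold of 0.694. VTN stood at -0.45 and -0.50 on these arrays, with a mean of -0.47 (SE 0.050), and ITGB4 at -0.43 and -0.40, with a mean of -0.42 (SE 0.049). Limma's adjusted p was 0.0101 for LAMB1, 0.0120 for VTN and 0.0124 for ITGB4. By this processing 10.9% of all probes passed as lower and 10.8% as higher, against 0% in either direction with all spots, where 23.3% had an unadjusted p under 0.05. With both directions together, 21.8% of probes passed. These 3 genes were also past the limma threshold with no background correction, where 12.1% of probes passed as lower, with plain subtraction (10.6%), with the authors' net intensities (15.5%) and without normalization (26.9%). They were not past it with median centring, where LAMB1 had a log2 ratio of -0.62 at an adjusted p of 0.267, nor with print-tip loess (-0.34, adjusted p 0.166), either spot alone, the filter on dim probes or the robust variance model. The calls with the 2 spots left out also rest on the pairing of channels by array, a replicate block. With the 4 channels as separate samples 0 probes passed (138 at an unadjusted p under 0.05), and the adjusted p was 0.603 for LAMB1 and ITGB4 and 0.662 for VTN.

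**Figure D2:**
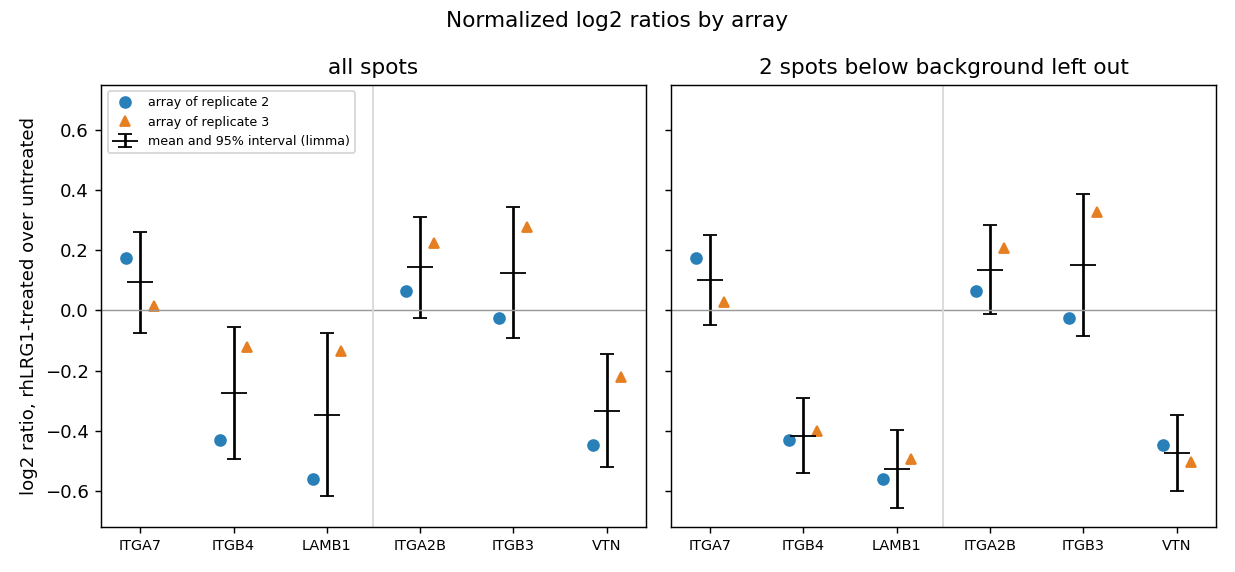
Log2 ratio of rhLRG1-treated over untreated cells on the array of replicate 2 (circles) and of replicate 3 (triangles), with limma's mean and 95% interval, from all spots (left) and with 2 spots below their background left out (right). LAMB1, ITGB4 and VTN lie below 0 in both panels and their arrays lie closer together in the right one.

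ITGA7, the laminin receptor chain of muscle, was not well above background in rhLRG1-treated cells. Its spots had a foreground of 71.1 and 70.3 on replicate 2 and 71.7 and 69.1 on replicate 3 in rhLRG1-treated cells, over local backgrounds of 69.0, 66.9, 70.5 and 68.1. These readings were 0.424 to 1.75 SD of the background above it, so 0 of 4 treated spots passed the background plus 2 SD. In untreated cells the foregrounds were 46.9 and 49.2 on replicate 2 and 52.0 and 54.3 on replicate 3, which is 3.93 to 6.69 SD above the background, and 4 of 4 passed. The untreated spots lay 5.04 to 7.82 units above theirs.

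The direction of ITGA7 changed with the processing. The log2 ratio was 0.17 on replicate 2 and 0.013 on replicate 3, with a mean of 0.093 (95% interval -0.074 to 0.26, limma's adjusted p 0.440). The Z ratio was 2.97, a call as higher. With the authors' net intensities the Z ratio was -3.28, a call as lower, at a log2 ratio of -0.92. The Z ratio was 1.06 with plain subtraction and 0.663 with loess-normalized channels, and no call was made. Over the array, 28 probes had a spot at or under the background plus 2 SD in a channel, and 25 of these (89.3%) were called higher by the Z ratio and 0 lower, against 100 called higher (5.47%) among the other 1828 probes. Because the treated channel gives only a bound, the untreated mean of 6.67 on the log2 scale was set against a treated floor of 6.81. In each treated sample the floor was the lowest level of probes above background, or that of ITGA7 itself where higher. It was then averaged over the treated samples. These levels followed loess and Aquantile scaling of the channels, and the measured treated mean was 6.76. The untreated mean lay under that floor, so no fold is given.

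**Figure D3:**
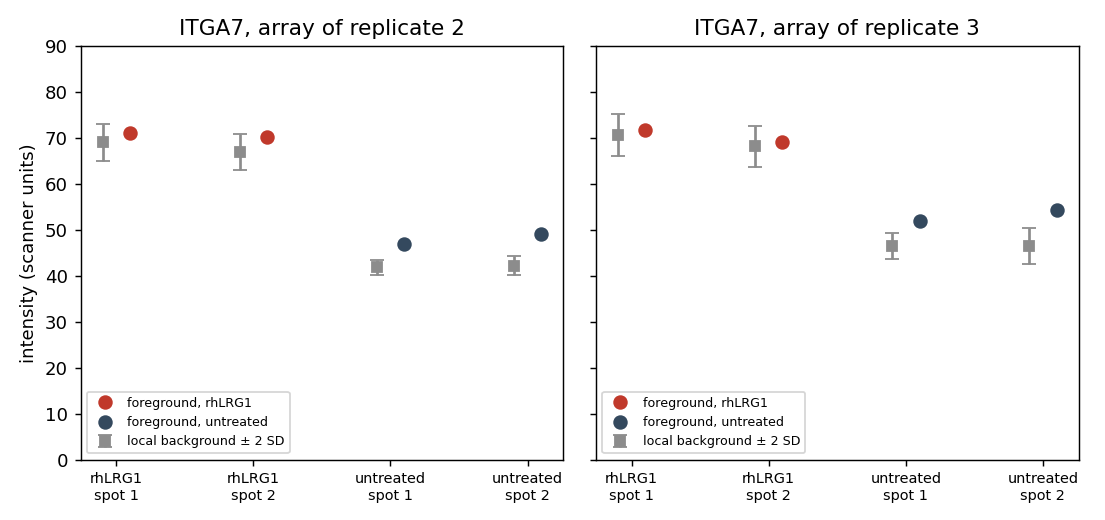
ITGA7 foreground (circles) and local background with 2 SD (grey squares and bars), in scanner units, for both spots of each channel on each array. The rhLRG1-treated foregrounds, 69.1 to 71.7, lie within 2 SD of their background and the untreated foregrounds, 46.9 to 54.3, above it.

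ITGA2B, the alpha chain of the platelet fibrinogen receptor, gave the brightest readings of the set. Its spots had foregrounds of 41181 and 30334 on replicate 2 and 42214 and 32081 on replicate 3 in rhLRG1-treated cells. In untreated cells they had 31255 and 26474 on replicate 2 and 29287 and 22852 on replicate 3. The first spot was the brightest of all 3786 gene spots in both treated samples and in untreated replicate 2, and the second brightest in untreated replicate 3. Brightness depends on the probe and the label as well as on the transcript, so it does not rank ITGA2B against other genes, and the array has no means of telling what RNA bound there. Each highest reading was reached by 1 spot only, so the scan showed no ceiling shared by several spots. The readings are means over a spot, so this does not show whether pixels within it were saturated.

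The ratio of ITGA2B did not pass either rule. The log2 ratio was 0.063 on replicate 2 and 0.22 on replicate 3, with a mean of 0.14 (SE 0.066, 95% interval -0.024 to 0.31), or a fold of 1.10. Before loess the ratios were 0.30 and 0.51, and the loess curve took up 0.23 on replicate 2 and 0.29 on replicate 3. The Z ratio was 0.853 and limma's adjusted p 0.272. On replicate 3 alone the Z ratio was 2.22, a call as higher, and 0.107 with the 2 spots left out, which is no call.

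ITGB3, the beta chain that ITGA2B pairs with, varied more between spots and arrays than between groups. Its spots had foregrounds of 671 and 1623 on replicate 2 and 405 and 523 on replicate 3 in rhLRG1-treated cells, against 815 and 1913 on replicate 2 and 422 and 530 on replicate 3 in untreated cells. The groups overlapped, and the duplicate spots of replicate 2 differed 2.42-fold in treated and 2.35-fold in untreated cells. The log2 ratio was -0.024 on replicate 2 and 0.28 on replicate 3, with a mean of 0.13 (SE 0.086, 95% interval -0.090 to 0.34, limma's adjusted p 0.425), and the Z ratio was 1.03. From replicate 3 alone the Z ratio was 2.22, and 1.55 with the 2 spots left out, past the threshold both times, while replicate 2 alone gave 0.0830. The intervals of ITGA2B and ITGB3 both include 0, and they also allow folds of up to 1.24 and 1.27.

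**Figure D4:**
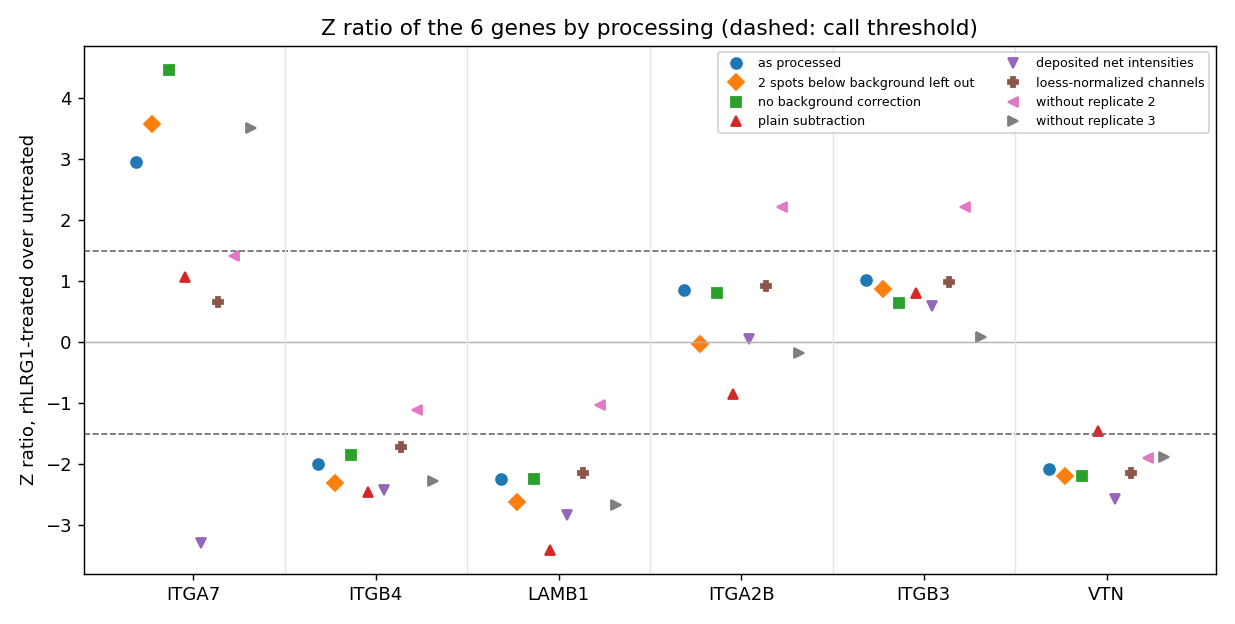
Z ratio of rhLRG1-treated over untreated cells for the 6 genes under 8 ways of processing, with dashed lines at the call threshold of 1.5 in either direction. LAMB1 and ITGB4 lie below -1.5 except without replicate 2, VTN except with plain subtraction, and ITGA7 spans 4.47 to -3.28.

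Of the 6 genes, 1 was called higher (ITGA7) and 3 lower (ITGB4, LAMB1 and VTN) by the Z ratio, where 6.73% of all probes were called higher and 6.63% lower, 13.4% together. The same genes were called with the 2 spots left out, with 4.74% of probes higher and 6.95% lower. With the authors' net intensities ITGA7 was called lower too, which made 4 of the 6, with 6.2% of probes lower. Limma passed 0 of the 6 at an adjusted p of 0.05, with 3 lower at an unadjusted p under 0.05, where 11.7% of probes were, and 3 with the 2 spots left out. With replicate 2 left out 6.41% of probes were called higher and 5.71% lower, and with replicate 3 left out 5.77% and 6.79%. Without replicate 2 the calls of LAMB1 (Z ratio -1.03), ITGB4 (-1.10) and ITGA7 (1.42) were lost, which with the 2 spots left out were -2.36, -2.16 and 3.37.

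The laminin-binding genes had a median log2 ratio of -0.28 and the vitronectin and fibrinogen-binding genes one of 0.13, a difference of -0.40, with -0.41 on replicate 2 and -0.35 on replicate 3. The difference of the means was -0.16, but -0.64 with plain subtraction and -0.62 with the authors' net intensities, where ITGA7 stood at -0.61 and -0.92. Without ITGA7, a choice made after the data were seen, the difference of medians was -0.44 and that of the means -0.29. An arrangement by role rather than by binding partner was not part of the plan. In it both ligands were called lower. Among the 4 receptor chains 1 was called lower, 1 higher at the level of the background, and 2 were not called. Over all probes 6.63% were called lower and 6.73% higher. Of 10 measured matrix ligands, which include VTN but not LAMB1, 2 were called lower and 1 higher. The 3 genes called lower had a mean log2 brightness of 6.86 to 7.96 on replicate 2, below the 10.1 of ITGB3, and the part of brightness in the difference between the groups was not tested beyond the loess normalization. With 3 genes a group chosen with earlier results known, these differences are a description and have no test.

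Other genes of matrix adhesion were counted in 4 lists. Of 26 integrin subunits listed, 8 were on the array, and the 4 that are not members (ITGA3, ITGB1, ITGB6 and ITGB8) had mean log2 ratios of -0.080 to 0.16 and Z ratios of -0.400 to 0.717, with no call. Of 5 measured laminin and basement membrane genes, 1 was called lower, LAMB1, and 0 higher. Of 10 measured matrix ligands 1 was called higher, SPP1 or osteopontin (log2 ratio 0.26, Z ratio 1.62), and 2 lower, VTN and CCN1, a matricellular ligand of integrins (-0.22, Z ratio -1.53). Of 14 measured adhesion and signalling proteins 1 was called lower, CRK, an adaptor of focal adhesions (-0.20, Z ratio -1.55), and 0 higher. Over the 31 measured genes of these lists other than the 6, 1 was called higher and 2 lower, where 6.73% of all genes were called higher and 6.51% lower, so that these calls were no more frequent than over the array. The median log2 ratio was -0.023 (-0.057 under median centring), where that of all genes was -0.0060. With the 2 spots left out SPP1 had a log2 ratio of 0.28 and passed limma (adjusted p 0.0369) but not the Z ratio (1.34). CCN1 (Z ratio -1.74, limma adjusted p 0.0245) and CRK (-1.79, 0.0195) passed both.

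The genes whose 4 normalized channel values, centred on the gene mean, lay nearest to each member were MEST for LAMB1, DPYD for VTN, JTB for ITGB4, TPX2 for ITGA7, CXCL1 for ITGA2B and TIMP2 for ITGB3. Their Euclidean distances were 0.0213 to 0.0637 log2 units over 4 samples, against medians of 0.498 to 1.87 to all genes. With 4 samples on 2 arrays such likeness also reflects differences between the arrays, and that of ITGA7 describes spots that were not above background in treated cells.

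Markers of other cells and the scale of the array were looked at once. ACTB had a mean log2 ratio of -0.025. Among platelet markers, which include ITGA2B, 0 of 5 measured were called, as were 0 of 3 endothelial and 0 of 2 hepatocyte markers. All 3 endothelial markers stood below 0, and with the 2 spots left out CDH5 passed limma as lower (log2 ratio -0.30, adjusted p 0.0211), as 10.9% of probes did. Among 6 leukocyte markers CD3G was called higher (Z ratio 2.38), among 4 luminal and receptor markers PGR lower (-1.60), and among 5 mesenchymal markers AXL higher (2.33). Each of these lists went both ways. Log2 ratios were above 0 for 2 and below 0 for 4 leukocyte markers. They were above 0 for 2 and below 0 for 2 luminal and receptor markers, and for 3 and 2 mesenchymal markers. Over all genes 6.73% were called higher and 6.51% lower, and these lists are too short to set against that share. CD3G had a log2 ratio of 0.13 and a limma adjusted p of 0.314, or 0.21 and 0.0376 with the 2 spots left out. By that processing limma also passed AXL (0.49, adjusted p 0.0109) and CDH2 (0.18, 0.0146) as higher and PGR (-0.36, 0.0135) as lower. Per sample, 3758 and 3768 of 3786 gene spots passed the background plus 2 SD in treated and 3781 and 3785 in untreated samples, so most markers passed as well, whatever cell they mark. The median foreground over background was 4.57 and 5.69 in treated and 8.71 and 11.8 in untreated samples.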

How the data were processed

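RNA of rhLRG1-treated and untreated MDA-MB-231 cells was hybridised to 2 two-colour arrays. The authors deposited, for each spot, scanned intensities of foreground and local background with its SD, and a net intensity. In the net intensity the treated channel is further adjusted, by a factor that differs between spots. On treated replicate 2, foreground minus background was 29.7 and the net intensity 94.9 at the first ITGB4 spot. At the first ITGA2B spot they were 41109 and 32909. The methods name genArise with default parameters and a Z-score in Excel, and the processing notes R 4.2.2. The deposited ratio of net intensities is the authors' own comparison and was not used as deposited. Ratios computed from the net intensities were run as an alternative, without further normalization. The label text of the second treated sample repeats that of the first, so replicate numbers follow the titles. In the 2 further tables all 3840 spots held the same net intensities within 0.0001.

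Foregrounds were corrected by normexp (offset 50) and log2 ratios normalized by loess within each array, with 54 control spots at weight 0. Spots of a probe were averaged. Z ratios used the log10 background-corrected channels without loess, centred and scaled per channel. Tests were run with limma (version 3.58.1, under R 4.3.3), and p-values were adjusted by Benjamini-Hochberg across 1856 probes. Gene names came from RefSeq (GRCh38.p14), 1701 probes by accession, 60 by symbol and 15 by synonym, while 5 kept the name of the file and 75 had none. All 6 members matched by accession.

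Same-numbered samples shared an array, and their deviations from the group means correlated at 0.920 over probes. The design text calls the cultures independently grown. The members and lists were chosen with earlier results of these data known. Named genes are the members, called genes of the 4 adhesion lists with the same sign on both arrays, ACTB and the nearest gene to each member. CD3G, PGR, AXL, CDH2, CDH5, IFNG, RAI3 and the 4 other integrin subunits are not covered by this rule and were picked once their values were known. The alternatives were other background corrections and normalizations, the net intensities, a filter on dim probes, single spots, each replicate left out, a robust variance model and no replicate block. Added after seeing the data were leaving out spots below their background, the same with no replicate block, and leaving ITGA7 out of the group medians. The steps were tested on simulated data. The simulated arrays held no spot below its background, so that test does not cover this feature of the data. No protein sequences were used here.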

Additional observations from a re-analysis of the deposited data

How the results depend on the processing

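LAMB1, VTN and ITGB4 had a log2 ratio below 0 under every alternative run, and ITGA2B one above 0. Limma passed 0 of 1856 probes and 0 of the 6 genes, but 432 and 3 with no background correction, 422 and 3 with plain subtraction, 503 and 3 without normalization, 603 and 4 with the authors' net intensities, 404 and 3 with spots below background left out, and 1 and 36 probes from the first or second spot alone. Probes called higher by the Z ratio numbered 125, but 54 with plain subtraction. Of the 6 genes 0 were called higher with plain subtraction, the net intensities, dim probes left out (ITGA7 is then not tested) or loess-normalized channels. With one replicate left out, 1 to 2 were called higher and 1 to 3 lower, of 107 to 119 probes higher and 106 to 126 lower in all.

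The log2 ratio of ITGA7 reversed with plain subtraction (-0.61), no normalization (-0.072), print-tip loess (-0.050) and the net intensities (-0.92), and its Z ratio with the net intensities (-3.28). The Z ratio of ITGA2B, not called with both arrays, was 2.22 without replicate 2, -0.84 with plain subtraction, -0.031 with the 2 spots left out and -0.18 without replicate 3, and the log2 ratio of ITGB3 was -0.10 without normalization. The 2 spots were left out only together, and the cause of these changes was not tested.

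The difference of group medians (-0.40) was -0.49 with no background correction, -0.79 with plain subtraction, -0.77 with median centring or no normalization, -0.30 with print-tip loess, -0.81 with the net intensities, -0.55 with the 2 spots left out (with the block or without), and -0.35 to -0.41 with one replicate left out.

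With no replicate block, the 4 channels as separate samples, limma passed 0 probes at an adjusted p of 0.05 (21 at an unadjusted p under 0.05, against 433 with the pairing of channels by array). No call could be lost there, since the main fit made none. With the 2 spots left out, taking away the block as well brought the 404 probes to 0 and the 3 genes to 0. The other processing alternatives that made calls were not run without the block. Signal over background limits what could be read: ITGA7 was not well above background in either treated sample.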
